A study of Bos taurus with 30 samples.

Results

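The genes described here are 9 transcription factors of the neural plate and of the anterior epiblast: OTX2, SOX3, SOX1, SOX21, PAX6, ZIC2, SIX3, HESX1 and LHX5. They were taken from the count table as the rows whose Entrez gene ID carries one of these cattle symbols in the RefSeq annotation of the assembly ARS-UCD2.0. Of the 9 symbols, 8 were matched among the 35092 gene IDs, and SOX3, which was not, is not analysed here. The tissue came from day 15 elongated bovine embryos, in which poly(A)-selected RNA was sequenced from the embryonic disc (ED) and from the extra-embryonic membranes (EEM). In vitro produced (IVP) embryos came from slaughterhouse oocytes that were matured, fertilized and cultured without serum, and then grew in recipient cows from day 7. In vivo (IVV) embryos were conceived by artificial insemination of superovulated cows. ED libraries came from 7 IVP and 9 IVV embryos. Membrane libraries came from 6 IVP and 8 IVV embryos. Of the 17 embryos 13 gave both tissues, 5 of them IVP and 8 IVV. Per the study's methods 1 Holstein bull sired the embryos of both groups. A pair of Holstein recipient cows carried the IVP embryos, and a pair of Holstein donor cows gave the IVV embryos. The labels do not tie embryos to cows, so embryos of 1 cow entered the tests as separate replicates. The study also found IVP embryos shorter than IVV embryos, and length was not a term in the tests here. The procedure, the dams, the cow that carried the embryo and differences in length therefore cannot be told apart.

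The embryonic disc is the flat epiblast from which the body of the embryo forms, and the membranes around it consist of trophoblast and hypoblast. At gastrulation, the posterior epiblast enters the primitive streak, while ectoderm that is shielded from posterior signals forms the neural plate with the forebrain at its front end. OTX2 acts in the epiblast when it leaves naive pluripotency and later in the forebrain and midbrain. HESX1, SIX3 and LHX5 are homeodomain factors of the forebrain, and PAX6 is a paired-box factor of the neural tube and the eye. SOX1 and SOX3 are HMG-box activators that keep neural progenitors undifferentiated, SOX21 is a related repressor, and ZIC2 is a zinc finger factor of the epiblast and the neural plate.

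Libraries held between 48713218 and 63037371 counts on genes. Levels are given in CPM, that is counts scaled to a common library size, with TMM factors over the 30 libraries. They can be compared between samples but not between genes, since they are not divided by gene length. A library with at most 3 counts of a gene is called at the floor for that gene. The labelled tissues were checked with a list of 13 epiblast markers, of which 11 were matched. Between ED and EEM of the same embryos, 7 of the 9 tested were higher in the ED, where 14.4% of all genes were higher and 10.1% lower, TDGF1 was lower (median levels of 34.6 and 36.8 CPM in IVP and IVV discs against 65.6 and 57.8 CPM in the membranes) and FGF5 did not pass, and SOX2 and UTF1 were at 0 in every library. NANOG lay between 2.71 and 44.0 CPM in the ED, and no EEM library exceeded 0.195 CPM. POU5F1 lay between 16.4 and 228 CPM in the ED and between 0.419 and 2.43 CPM in the EEM. Trophoblast markers were not absent from the ED, where 15 of 15 were above the floor in most libraries, with a summed level of 13163 to 74720 CPM in IVP and 32336 to 49098 CPM in IVV discs, against 36285 to 83572 CPM in the EEM. The sections labelled ED thus held much RNA of trophoblast markers beside that of the epiblast, and in bulk samples fewer cells of a type and less RNA per cell cannot be told apart.

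**Figure D1:**
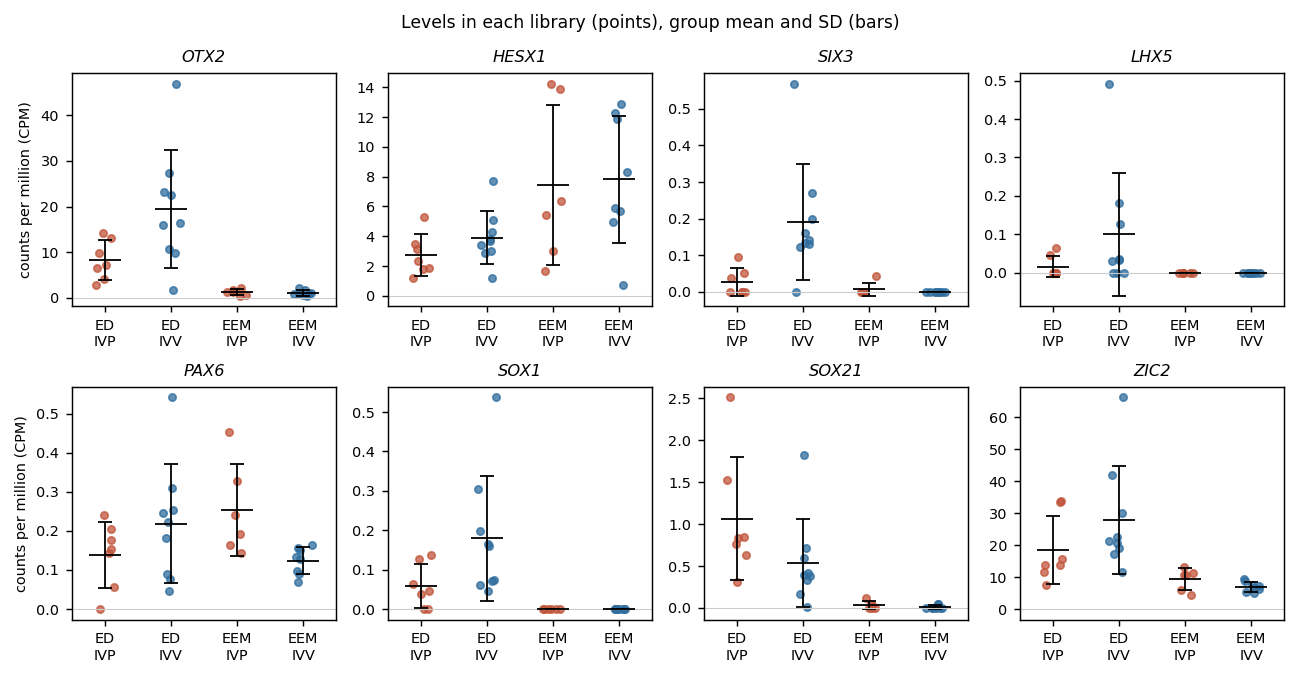
Levels of the 8 matched genes in CPM (vertical axes, linear, starting near 0 and scaled to each gene) in the ED and the EEM of IVP (red) and IVV (blue) embryos, with each point a library and the black bars the group mean and SD. OTX2, ZIC2 and SOX21 stand higher in the ED, HESX1 stands higher in the EEM, and SOX1, SIX3 and LHX5 are at or near 0 CPM in the EEM.

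OTX2 was present in each of the 30 libraries and was much higher in the ED than in the EEM. In the ED its lowest, median and highest levels were 2.85, 7.15 and 14.2 CPM in IVP and 1.84, 16.4 and 46.9 CPM in IVV embryos. In the EEM they were 0.471, 1.31 and 2.10 CPM in IVP and 0.487, 0.865 and 2.18 CPM in IVV embryos. Only the disc of the IVV embryo VE4, at 1.84 CPM, lay within the range of the EEM libraries. The disc exceeded the membranes in 13 of 13 embryos that gave both, by 2.18-fold to 96.4-fold with a median of 11.1-fold. The comparison of the tissues was fitted with edgeR's quasi-likelihood test with the embryo as a block, Benjamini-Hochberg adjustment over 16784 genes and a threshold of 0.05. It gave a log2 fold change of 3.40 ± 0.37 (SE, adjusted p = 1.3e-06).

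ZIC2 was also found in all libraries, with a smaller difference between the tissues. Its lowest, median and highest levels in the ED were 7.61, 13.9 and 33.9 CPM in IVP and 11.7, 21.4 and 66.4 CPM in IVV embryos. In the EEM they were 4.44, 10.6 and 13.2 CPM in IVP and 5.14, 6.77 and 9.46 CPM in IVV embryos. The IVV discs all lay above the IVV membranes, while the IVP groups overlapped. ZIC2 was higher in the disc in 12 of 13 embryos, with a median of 2.54-fold, and the exception was the IVP embryo IVPF13 with 7.61 CPM in the disc and 10.6 CPM in the membranes. The log2 fold change of ED against EEM was 1.42 ± 0.26 (SE, edgeR adjusted p = 0.000426).

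SOX21 was close to the floor in the membranes and clearly counted in most discs. In the ED it had 17 to 111 counts in IVP and 1 to 119 counts in IVV libraries, which are 0.315 to 2.51 CPM with a median of 0.839 CPM, and 0.0175 to 1.83 CPM with a median of 0.396 CPM. In the EEM, 5 of 6 IVP and 8 of 8 IVV libraries were at the floor, and the highest held 6 counts, in embryo IVP11. SOX21 was higher in the disc in 13 of 13 embryos, and its fitted log2 fold change was 5.10 ± 0.50 (SE, edgeR adjusted p = 2.06e-07). With at most 6 counts in the EEM it passed the filter on counts only through the ED, so this test is not separate support. As IVV membranes were at the floor, the mean of IVV discs is given as at least 9.14-fold higher than 3 counts per EEM library.

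HESX1 went the other way and was lower in the disc than in the membranes. Its lowest, median and highest levels were 1.18, 2.33 and 5.32 CPM in the IVP and 1.19, 3.68 and 7.72 CPM in the IVV discs. In the membranes they were 1.69, 5.90 and 14.2 CPM in IVP and 0.748, 7.08 and 12.9 CPM in IVV embryos. The ranges of the tissues overlapped over the groups, but within embryos HESX1 was lower in the disc in 12 of 13, and the exception was VE19 with 1.19 CPM in the disc and 0.748 CPM in the membranes. The log2 fold change was -1.02 ± 0.18 (SE, edgeR adjusted p = 0.000242), and the median ratio of disc to membranes was 0.511. VE4, the IVV embryo with the lowest disc levels of OTX2 and ZIC2, had the highest HESX1 of its group in both tissues.

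PAX6 was low in both tissues and showed no common direction. It had 0 to 14 counts in IVP and 3 to 33 counts in IVV discs, with means of 0.139 ± 0.0843 CPM (SD, n = 7) and 0.219 ± 0.151 CPM (SD, n = 9). In the membranes it had 7 to 23 counts in IVP and 3 to 9 counts in IVV libraries, with means of 0.253 ± 0.118 CPM (SD, n = 6) and 0.123 ± 0.0344 CPM (SD, n = 8). PAX6 was lower in the disc than in the membranes in 5 of 5 IVP embryos and higher in 7 of 8 IVV embryos. Over the 13 embryos the log2 fold change was -0.03 ± 0.48 (SE, edgeR adjusted p = 0.965).

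Of the 5 members with enough counts to be tested between the tissues, 3 were higher and 1 was lower in the ED. SOX21, 1 of the 3, passed the filter on counts only through the ED, so its direction was largely set by the filter. Of all 16784 genes tested, 14.4% were higher and 10.1% lower, and the median log2 fold change was 1.42 over the 5 members and -0.09 over all genes. In IVV embryos alone the same 4 members passed the threshold: OTX2 (log2 fold change 3.90 ± 0.44, SE), SOX21 (5.47 ± 0.69), ZIC2 (1.86 ± 0.29) and HESX1 (-0.86 ± 0.22). The size for SOX21 depends on the prior count, as the 8 IVV membranes were at the floor, and the bound of at least 9.14-fold stands for it. Among all genes 15.6% were higher and 6.55% lower in these embryos. In IVP embryos alone OTX2 (2.62 ± 0.53), SOX21 (4.72 ± 0.68) and HESX1 (-1.28 ± 0.28) passed the threshold, against 4.18% of all genes higher and 0.649% lower. The size for SOX21 depends on the prior count here too, as most IVP membranes were at the floor. ZIC2 (0.74 ± 0.36, adjusted p = 0.298) and PAX6 (-1.42 ± 0.65, adjusted p = 0.252) did not pass in IVP embryos, of which there were 5 with both tissues.

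**Figure D2:**
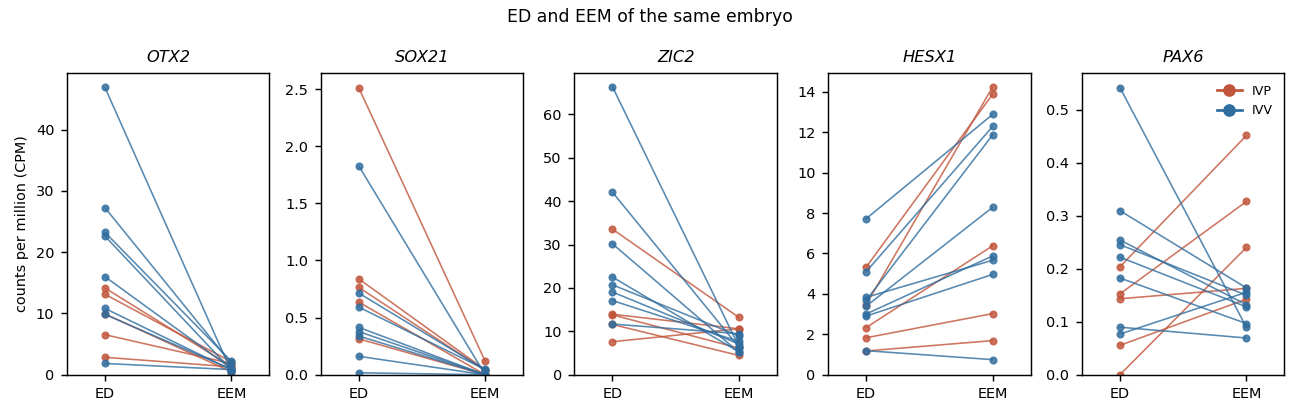
Levels in CPM (vertical axes, linear from 0 and scaled to each gene) in the ED and the EEM of the same embryo, joined by a line for each of 5 IVP (red) and 8 IVV (blue) embryos. The lines of OTX2 and SOX21 fall from ED to EEM in 13 of 13 embryos, those of ZIC2 in 12, and those of HESX1 rise in 12, while those of PAX6 rise in the 5 IVP embryos and fall in 7 of the 8 IVV embryos.

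Whether the tissue difference itself changed with the procedure was tested by the interaction in the same 26 libraries. None of the 5 members passed the threshold in edgeR's test, where 0.107% of all genes had a larger and 0.918% a smaller difference of ED minus EEM in IVP embryos. With DESeq2 the count was 0 as well. The unadjusted p in edgeR was under 0.05 for 2 members, a threshold at which the share of all genes was not counted. PAX6 differed by -2.23 ± 0.82 on the log2 scale (SE, adjusted p = 0.258) and ZIC2 by -1.12 ± 0.46 (adjusted p = 0.351). For OTX2 the value was -1.28 with a 95% interval of -2.56 to 0.01, for SOX21 it was -0.74 (-2.96 to 1.47) and for HESX1 -0.42 (-1.10 to 0.27). The intervals of OTX2 and SOX21 include differences of more than 4-fold.

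SOX1, SIX3 and LHX5 had too few counts for the filter and were fitted without it. SOX1, among the first genes to mark neural fate, held 0 counts in all 14 EEM libraries. In the discs it held 0 to 8 counts in IVP libraries, of which 4 of 7 were at the floor, and 3 to 35 counts in IVV libraries, of which 2 of 9 were. SIX3 held 0 counts in the EEM except for 2 counts in IVPF13. Among the discs it held 0 to 6 counts in IVP libraries, of which 6 of 7 were at the floor, and 8 to 37 counts in 8 of 9 IVV libraries, with 0 in VE19. LHX5 held 0 counts in all EEM libraries and at most 4 in IVP discs. Among IVV discs it was above the floor in 3 of 9, with 8 counts in VE29, 12 in VE6 and 32 in VE5. Set against 3 counts per EEM library, the mean of the IVV discs was at least 3.05-fold higher for SOX1 and at least 3.26-fold for SIX3, and none is given for LHX5, of which VE5 held most. Without the filter, over 24105 genes with 11% higher and 5.18% lower, SOX1 (adjusted p = 0.00177) and SIX3 (adjusted p = 0.00681) were higher in the ED in edgeR's test and LHX5 did not pass (adjusted p = 0.0712). With DESeq2 SIX3 did not pass either (adjusted p = 0.143).

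The comparison of IVP with IVV discs asked whether these factors differed with the procedure. None of the 5 members tested was past the threshold with edgeR's quasi-likelihood test, 1 surrogate variable in the model and Benjamini-Hochberg adjustment over 15733 genes, of which 1.4% were higher and 4.95% lower in IVP discs. With DESeq2 the count was also 0. At an unadjusted p under 0.05 it was 2, a threshold at which the share of all genes was not counted. Of the 5 members, 4 had a negative log2 fold change, with a median of -0.69 over the 5 and -0.01 over all genes.

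OTX2 came nearest to the threshold. Its mean was 8.27 ± 4.33 CPM (SD) in the 7 IVP discs and 19.4 ± 12.9 CPM (SD) in the 9 IVV discs, and the fitted log2 fold change was -1.23 ± 0.44 (SE, adjusted p = 0.0986). All 7 IVP discs lay under the IVV median of 16.4 CPM, and 6 of 9 IVV discs lay above every IVP disc. The groups overlapped through VE4 at 1.84 CPM, VE24 at 9.86 CPM and VE3 at 10.8 CPM. Without VE4 the log2 fold change was -1.41 and the adjusted p = 0.0149, and without VE5, the highest disc, they were -0.75 and 0.371. The other embryos left out in turn gave no call.

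ZIC2 had a mean of 18.6 ± 10.6 CPM (SD) in the 7 IVP discs and 27.9 ± 16.8 CPM (SD) in the 9 IVV discs. Its log2 fold change was -0.74 ± 0.34 (SE, adjusted p = 0.236), and 5 of 7 IVP discs lay under the IVV median. HESX1 had a mean of 2.73 ± 1.38 CPM (SD, n = 7) and 3.90 ± 1.79 CPM (SD, n = 9), with a log2 fold change of -0.66 ± 0.32 (adjusted p = 0.277). PAX6 gave -0.69 ± 0.58 (adjusted p = 0.606). SOX21 was the member with the opposite sign, with 1.06 ± 0.734 CPM (SD) in the 7 IVP discs and 0.538 ± 0.526 CPM (SD) in the 9 IVV discs and a log2 fold change of 0.94 ± 0.55 (adjusted p = 0.394). Its IVP discs lay above the IVV median of 0.396 CPM in 6 of 7 embryos, yet the second highest disc of all was the IVV embryo VE5 at 1.83 CPM, after IVP11 at 2.51 CPM.

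**Figure D3:**
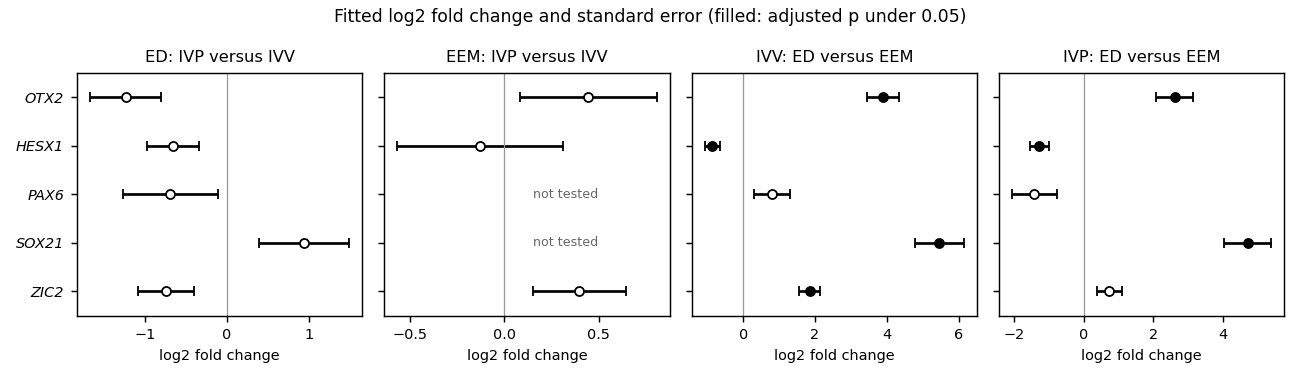
Log2 fold change (horizontal axes) and its SE from edgeR for the 5 members with enough counts, for IVP against IVV in each tissue and for ED against EEM in each procedure, with filled points past an adjusted p of 0.05. No point is filled in the panels of IVP against IVV, and OTX2, SOX21 and HESX1 are filled in both panels of ED against EEM.

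The low-count members differed in how the discs were spread. For SIX3, 8 of 9 IVV discs lay above every IVP disc, with 0 to 0.0962 CPM in IVP and a median of 0.140 CPM in IVV. Without the filter, where 1.93% of 23686 genes were higher and 5.86% lower in IVP discs, its log2 fold change was -3.20 ± 0.87 (SE, adjusted p = 0.0142). The call was lost without IVP11 (-2.50, adjusted p = 0.0672) and with the epiblast marker covariate (-2.74, adjusted p = 0.0608). It held without each of the other 15 embryos (-3.97 without IVPF14) and with DESeq2 (adjusted p = 0.00474), while the size of the fold depends on the prior count, as 6 of 7 IVP discs were at the floor. In the same fit SOX1 gave -1.91 (adjusted p = 0.118; -1.16 with the epiblast marker and -2.67 with the XIST covariate), LHX5 gave -2.41 (adjusted p = 0.226; -1.63 without VE5, -3.12 without IVPF10, -1.41 with the epiblast marker and -3.40 with the XIST covariate) and OTX2 gave -1.24 (adjusted p = 0.0504). All 7 IVP discs were under the IVV median of SOX1, 0.159 CPM.

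In the membranes, none of the 3 members tested differed between IVP and IVV embryos in edgeR's test, over 14718 genes of which 2.29% were higher and 1.52% lower in IVP. OTX2 gave 0.44 ± 0.36 (SE, adjusted p = 0.753), ZIC2 0.40 ± 0.25 (adjusted p = 0.569) and HESX1 -0.13 ± 0.44 (adjusted p = 0.988). The count was 0 with DESeq2 and at an unadjusted p under 0.05 as well. The 95% intervals of the log2 fold change ran from -0.27 to 1.15 for OTX2, from -0.08 to 0.88 for ZIC2 and from -0.99 to 0.73 for HESX1. PAX6 was not tested there, and 4 of 6 IVP membranes lay above every IVV membrane for it.

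NANOG, 1 of the 11 matched epiblast markers, varied widely between the discs, and OTX2 followed it across them. NANOG was chosen for this comparison after its values were seen, and the relation of the members with the other single markers was not tested. On the log2 CPM scale, with a prior count of 2, Pearson's r of OTX2 with NANOG was 0.949 over the 16 discs and Spearman's rho was 0.891. Both had p = 1e-05, the smallest that 100000 permutations can give, and 0.00015 after Benjamini-Hochberg adjustment over the 15 relations of 5 members in all, IVP and IVV discs. Without the 2 discs farthest from the median of NANOG, r was 0.941. Within the procedures, r was 0.912 in 7 IVP discs (exact permutation p = 0.00794, adjusted 0.0298, rho 0.821 with p = 0.0341 and 0.102 adjusted) and 0.959 in 9 IVV discs (exact permutation p = 0.000229, adjusted 0.00172, rho 0.883 with p = 0.00308 and 0.0231 adjusted). Without the 2 farthest discs of each procedure, r was 0.758 in 5 IVP and 0.809 in 7 IVV discs. The relation was past the threshold among IVP and among IVV discs by Pearson's r, and by rho in the IVV discs only.

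ZIC2 followed NANOG in the IVV discs, with r = 0.878 (exact permutation p = 0.00282, adjusted 0.0141, rho 0.833), and 0.689 without the 2 discs farthest from the median of NANOG. In the IVP discs r was -0.10 (exact permutation p = 0.838), and 0.487 without the 2 farthest. Over the 16 discs r was 0.598 (permutation p = 0.0139, adjusted 0.0347), while rho was 0.6 and did not pass (permutation p = 0.0165, adjusted 0.0617). No test of the difference between the procedures was made. For SOX21 r was 0.843 in IVV discs (exact permutation p = 0.0103, adjusted 0.031, rho 0.583 with p = 0.108), and it rested on the extremes, as it was 0.0831 without the 2 discs farthest from the median. HESX1 and PAX6 had no relation past the threshold, with r between -0.56 and 0.16 for HESX1 and between -0.30 and -0.07 for PAX6.

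**Figure D4:**
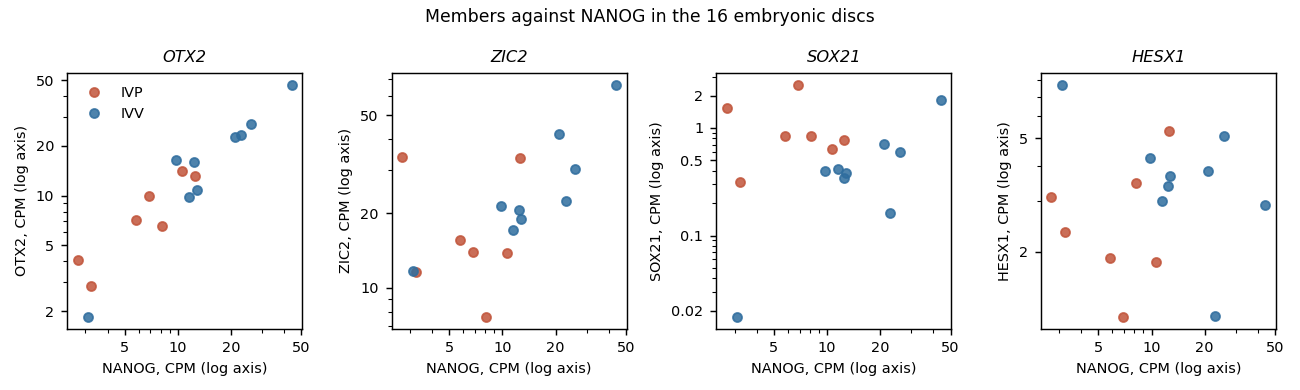
OTX2, ZIC2, SOX21 and HESX1 against NANOG, both in CPM on log axes, in the discs of 7 IVP (red) and 9 IVV (blue) embryos. OTX2 rises with NANOG through both groups (r = 0.949 on the log2 scale over the 16 discs), ZIC2 does so among IVV discs (r = 0.878), and HESX1 does not.

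NANOG itself was 7.13 ± 3.63 CPM (SD) in the 7 IVP discs and 18.1 ± 12.0 CPM (SD) in the 9 IVV discs, with a log2 fold change of -1.34 that did not pass (adjusted p = 0.0517). The epiblast markers did not move as 1 block. Of the 7 tested between IVP and IVV discs, 1 was lower in IVP, POU5F1, none was higher and 6 did not pass, where 4.95% of all genes were lower and 1.4% higher. Their median log2 fold change was -0.26. The value of GDF3 had the opposite sign, at 0.90 (adjusted p = 0.468), with medians of 16.2 CPM in IVP and 6.19 CPM in IVV discs. DNMT3B, TDGF1, LIN28A and SALL4 lay between -0.28 and -0.10. With NANOG's log2 level as a covariate, added after the values were seen, the log2 fold change of OTX2 between IVP and IVV discs was 0.32 (adjusted p = 0.732). With the summed level of 11 epiblast markers as the covariate it was -0.31 (adjusted p = 0.762), and that of SOX21 was 2.02 (adjusted p = 0.0415). The value of ZIC2, -0.74 without a covariate, was 0.03 with NANOG and -0.06 with the sum (adjusted p = 0.986 and 0.958). The sum ran from 272 to 650 CPM in IVP and from 247 to 1064 CPM in IVV discs. DNMT3B had the highest median of the markers in it, 166 CPM in IVP and 174 CPM in IVV discs, and the membranes, which also held DNMT3B, LIN28A, TDGF1 and SALL4, reached sums of 175 to 296 CPM. Among the IVV discs VE5 was the highest for OTX2, ZIC2, SOX21, SOX1, SIX3, LHX5, NANOG and POU5F1, and VE4 was the lowest for OTX2, ZIC2, SOX21, NANOG and POU5F1. Primitive streak markers differed between IVP and IVV discs, with 8 of 9 tested lower in IVP discs, against 4.95% of all genes. Their summed level was 7.70 to 18.8 CPM in IVP against 16.01 to 136 CPM in IVV discs. The part of these differences in those of the members was not tested.

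XIST, the transcript that coats the inactive X chromosome of females, was at most 0.296 CPM in the 7 IVP discs and 0.0154 and 0.0164 CPM in the IVV discs VE5 and VE3. The other 7 IVV discs held 45.1 to 150 CPM, so XIST and the procedure nearly coincided. With XIST as a covariate the log2 fold change between IVP and IVV discs was -1.90 for OTX2 (adjusted p = 0.0542) and -0.14 for SOX21 (adjusted p = 0.999). Among the 9 discs with at most 100 XIST counts, an alternative added after the values were seen, that of OTX2 was -2.12 (adjusted p = 0.0955).

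The genes whose variation among the 16 discs was most like that of each member were taken by Pearson's r of log2 CPM, after IVP and IVV were each centred on their own mean. For OTX2 they were SLC7A3 (r = 0.965), PTPRZ1 (0.962) and DPP6 (0.961). For ZIC2 they were FZD1 (0.948), SOX11 (0.943) and ARHGEF19 (0.939). SOX21 was most like THBS4 (0.909), MEST (0.903) and LRRC63 (0.888), HESX1 most like SFMBT1 (0.864), ADGRD1 (0.863) and DEPTOR (0.862), and PAX6 most like REP15 (0.848), SLFNL1 (0.783) and GP9 (0.770). Among the members, r was 0.724 for OTX2 with SOX21, 0.643 for SOX21 with ZIC2 and 0.588 for OTX2 with ZIC2, while OTX2 with HESX1 gave -0.38 and OTX2 with PAX6 -0.33. These values describe 16 libraries that share their discs and depths, and genes were picked from 15733 for being highest.

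Other early neural genes were followed as a list of 32, of which 31 were matched and 22 tested in the ED. Between IVP and IVV discs 1 was higher and 2 were lower, where 1.4% and 4.95% of all genes were, and 19 did not pass. These counts are near the background, and the median log2 fold change was -0.56 against -0.01 over all genes. MSX1, a factor of the neural plate border, was lower in IVP discs at 6.74 ± 3.35 CPM (SD) in 7 discs against 23.3 ± 6.77 CPM (SD) in the 9 IVV discs, with a log2 fold change of -1.94 ± 0.30 (SE, edgeR adjusted p = 0.000229). PAX3, another border factor, was lower as well (-2.85 ± 0.63, edgeR adjusted p = 0.00679). PAX2, which is known from the midbrain-hindbrain boundary and the kidney, was higher (1.91 ± 0.55, edgeR adjusted p = 0.0366). MSX1 and PAX3 passed with each of the 16 embryos left out in turn, whereas PAX2 passed in 8 of these 16 fits. Under the other alternatives MSX1 passed in 13 of 14, PAX3 in 11 of 13 and PAX2 in 7 of 13. The 3 with the highest mean CPM in the ED, IRX3, CDH2 and TFAP2A, did not pass, with values of 0.31, -0.05 and 0.32. Between the tissues, 6 of the 22 were higher and 2, DLX5 and TFAP2A, were lower in the ED, against 14.4% and 10.1% of all genes. Among the higher ones was SOX11 (3.86 ± 0.41, edgeR adjusted p = 1.03e-06), the close match of ZIC2 above. In the EEM, 2 of 18, ZIC5 and PAX2, were higher and 1, POU3F1, was lower in IVP embryos, against 2.29% and 1.52% of all genes.

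The anterior signalling genes, a list of 14 inhibitors, Wnt receptors and organizer factors linked to the front of the embryo, were all tested in the ED. Between IVP and IVV discs 1 was higher and 1 was lower, against the same 1.4% and 4.95% of all genes, and 12 did not pass. The median log2 fold change was -0.86, and -0.01 over all genes. SHISA2, an inhibitor of Wnt and FGF receptors, was higher in IVP discs (1.17 ± 0.34, SE, edgeR adjusted p = 0.0429). SFRP1, a secreted Wnt inhibitor, was lower (-1.36 ± 0.41, edgeR adjusted p = 0.0448), while FZD5, a Wnt receptor, gave -0.16 (adjusted p = 0.852). With each of the 16 embryos left out in turn SHISA2 passed in 7 fits and SFRP1 in 6. Under the other 14 alternatives SHISA2 passed in 9, with values from 0.76 to 1.57, and SFRP1 in 7, with values from -2.01 to -0.22, the last with NANOG as a covariate (adjusted p = 0.895). Between the tissues, 7 of 14 were higher in the ED and none was lower, against 14.4% and 10.1% of all genes, among them SFRP1 with a log2 fold change of 4.63 ± 0.42 (SE, edgeR adjusted p = 1.48e-07). In the EEM, where 2.29% of all genes were higher and 1.52% lower in IVP embryos, 1 of 9, HHEX, differed and was lower (-1.28 ± 0.36, edgeR adjusted p = 0.0444), though in 4 of 14 fits only with each embryo left out.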

How the data were processed

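RNA was non-stranded, poly(A)-selected and sequenced in paired 100-base reads. Reads were cleaned with SOAPnuke and mapped with STAR (assembly ARS-UCD1.3), featureCounts then assigned them to genes, and the values the authors deposited are raw counts for 35092 Entrez gene IDs. The submitters' processing notes name STAR 2.7.0b, Subread 2.0.3 and FastQC 0.11.9. All 30 columns were used, and RefSeq (ARS-UCD2.0) named 31630 IDs holding 99.5% of the counts. No member overlaps another gene in that table.

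Counts were analysed in R 4.3.3 with edgeR 4.0.16 (TMM, filterByExpr with a minimum count of 10, quasi-likelihood test, Benjamini-Hochberg adjustment at 0.05). The IVP and IVV embryos were compared within each tissue with 1 surrogate variable from svaseq (sva 3.50.0). ED and EEM were compared in 26 libraries of 13 embryos, paired by embryo as the sample titles give it, with the embryo as a block. An SE is the log2 fold change fitted without a prior count, divided by the root of its F statistic. The printed log2 fold changes include edgeR's prior count, so the 2 estimates can differ at low counts. The 95% intervals come from the printed value and this SE by the normal approximation. Alternatives were DESeq2 1.42.0, RLE scaling, 0 or 2 surrogate variables, other filters, halved counts in case each mate was counted, subsets of embryos, the final letter of the titles, XIST or epiblast markers as covariates, and each embryo left out in turn. The NANOG covariate, the low-XIST subset and the repeats of the fits without a filter were chosen after seeing the data. Library totals of 48713218 to 63037371 counts set the precision of low values, and floors cover counting error only. Members, gene lists and rules were chosen with earlier results of these data known. All members are named, and of the lists those past the threshold between IVP and IVV discs and the 3 of highest mean CPM. Names given for the lists between the tissues and in the EEM were added after their values were seen. Scripts were tested on simulated data. Methylation data were not analysed here.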

Additional observations from a re-analysis of the deposited data

Results flagged for a closer look

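Of 25 groups of 6 to 9 libraries tested for a sample far from the others, 4 were picked out by Dixon's ratio of the gap to the range. Chance picks out about 1 in 20 groups where values are normal and groups independent. The values here were linear CPM, several near the floor, and genes shared libraries, so the 4 are not set against that rate. In 3 of the 4 the sample was the disc of the IVV embryo VE5. It held 1.83 CPM of SOX21 (119 counts), 0.568 CPM of SIX3 (37 counts) and 0.492 CPM of LHX5 (32 counts). VE5 also held the most OTX2, ZIC2, NANOG and POU5F1 of the IVV discs and was 1 of 2 IVV embryos with low XIST. The fourth was the membrane library of IVP11 with 0.118 CPM of SOX21, which is 6 counts, and the disc of the same embryo had the highest SOX21 of all discs with 2.51 CPM.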

How the results depend on the processing

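Between ED and EEM, OTX2, SOX21 and ZIC2 stayed higher and HESX1 lower in the ED, past the threshold, in every alternative in which they were tested and with each of the 13 embryos left out, with log2 fold changes of 3.18 to 3.63, 4.82 to 5.30, 1.27 to 1.57 and -1.20 to -0.93. SOX21 was not tested where each library had to hold 10 counts. Without the replicate block, which pairs the tissues by embryo, 3 members were higher and 1 lower as with it, and over all genes 145 instead of 1692 were lower in the ED. Without a filter the members higher in the ED rose from 3 to 5, by SOX1 and SIX3, since these were then tested, and LHX5 passed only without the replicate block (adjusted p = 0.00393).

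Between IVP and IVV discs the members called lower rose from 0 to 1 without a filter (SIX3) and ran from 0 to 1 with each embryo left out, the 1 being OTX2 without VE4. The members called higher rose from 0 to 1 with the epiblast marker covariate (SOX21). OTX2 ran from -2.12 to 0.32 and ZIC2 from -1.18 to 0.03 over 14 alternatives and SOX21 from -0.14 to 2.39 over 13, and none of the changes of sign was past the threshold. PAX6 ran from -1.25 to -0.07 over 12 and HESX1 from -0.74 to -0.20 over 14, without a call. MSX1 lost its call among embryos with low XIST (adjusted p = 0.115), and PAX3 there (0.0987) and with NANOG as a covariate, while their log2 fold changes stayed between -2.14 and -1.52 and between -3.49 and -2.14 over all alternatives. The subset with low XIST holds 2 IVV discs. PAX2 lost it in 6 of 13 alternatives (adjusted p up to 0.246). None of the alternatives called a member between IVP and IVV membranes or in the interaction. Counts over all genes moved more, from 27 to 458 higher (220 as reported) and from 179 to 1388 lower (778) in IVP discs, from 52 to 764 (337) and from 81 to 447 (224) in IVP membranes, from 1109 to 2804 (2412) higher in the ED, and from 0 to 52 (18) and from 11 to 390 (154) for the interaction. Other early neural genes called in the ED ran from 0 to 1 higher (1) and from 0 to 5 lower (2) in IVP, and in the EEM from 0 to 4 (2) and from 0 to 2 (1). Between the tissues they ran from 4 to 11 higher (6) and from 1 to 3 lower (2) in the ED, and TFAP2A passed in 5 of 6 alternatives. The causes of these shifts were not tested. Counts near the floor limit SOX1, SIX3, LHX5 and PAX6, and 5 IVP embryos with both tissues limit the interaction.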

Other observations

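SOX2, the HMG-box factor most often used as a neural plate and epiblast marker, was listed at 0 counts in all 30 libraries. A long noncoding RNA gene that overlaps it in the RefSeq table of ARS-UCD2.0, LOC100849009, had means of 1.31 ± 0.648 CPM (SD) in the 7 IVP discs and 3.97 ± 2.83 CPM (SD) in the 9 IVV discs, and at most 2 counts in any EEM library. The library preparation did not keep the strand. Whether reads of SOX2 were left out of the counts was not tested, so no level of SOX2 is given, and this gene was picked after its values were seen.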
